A study of Mus musculus with 2 samples.

Results

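The 10 tubulin isotype genes Tuba1a, Tuba1b, Tuba1c, Tubb2a, Tubb2b, Tubb3, Tubb4a, Tubb4b, Tubb5 and Tubb6 were taken from a table of exon read counts by their symbols. All 10 were found among 30744 gene symbols, each with a single gene model, and all 10 had at least 20 reads over both libraries, as did 16326 symbols in all. Tubb3 and Tubb4a, with fewer than 20 reads in the normal library, reached this minimum through the tumour library, so their direction was in part fixed by it. The series compares 2 total RNA libraries of mouse kidney, each from 1 sample of tissue. The first is a normal kidney with the genotype labelled WT and no doxycycline. The other is a kidney tumour with the genotype Tet-OSKM/mPer2-luc from an animal given doxycycline, a drug that in this genotype switches on the reprogramming factors Oct4, Sox2, Klf4 and c-Myc. For both the strain is given as C57BL/6 x DBA/2 F1. The protocols given with both samples describe chimeras, made by placing embryonic stem cells with Rosa26-M2rtTA, TetO-OSKM and mPer2-luc into F1 hybrid blastocysts, so a tissue can hold host cells without the transgenes, and the labels do not say whether the normal kidney came from such an animal. They give neither age nor sex.

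Microtubules are hollow polymers of a dimer of alpha-tubulin and beta-tubulin, and mammals encode each of these proteins in several genes, the isotypes. The isotype proteins are closely alike except at the acidic C-terminal tail, which lies on the outside of the microtubule, carries most of the known tubulin modifications and is bound by motors and associated proteins. Cells build the mitotic spindle, the primary cilium of tubule cells and the axon of neurons from different mixes of isotypes, and free tubulin dimer feeds back on the stability of tubulin mRNA. Tubb5 (class I) is the common isotype of dividing cells, Tubb3 (class III) is widely used as a marker of neurons, and Tubb4b (class IVb) is found in most tissues and in cilia.

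The isotypes lie at 7 places on build mm10, given here as in the deposited table, counted from 1. Tuba1b (15: 98931431 to 98934390) and Tuba1a (15: 98949847 to 98953501) lie on the minus strand 15456 bases apart, and Tuba1c (15: 99029891 to 99038105) follows on the plus strand. Tubb2a (13: 34074280 to 34078008) and Tubb2b (13: 34127008 to 34130354) are neighbours as well, with 48999 bases between them. Tubb5 (17: 35833920 to 35838301), Tubb4a (17: 57080066 to 57087782), Tubb4b (2: 25222158 to 25224702), Tubb3 (8: 123411564 to 123422010) and Tubb6 (18: 67390731 to 67402749) stand alone. All 10 have 4 exons in the longest coding GENCODE M21 transcript. The counts cover exons, so they pool coding sequence and both untranslated regions.

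The coding ends, where the isotypes are known to differ most, are shown for beta isotypes on which the results below turn. They are the last 60 coding bases with the stop codon, from GENCODE M21 transcripts on mm10, written from 5' to 3' in the sense of transcription. In each set the first gene is in lower case, and capitals in the others mark bases that differ from it or that it lacks in a global alignment of the whole coding sequences. Tubb2a (chr13:34074468-34074527, minus strand) and Tubb2b (chr13:34127471-34127530, minus strand) differed at 3 of the 60 bases.
Tubb2a: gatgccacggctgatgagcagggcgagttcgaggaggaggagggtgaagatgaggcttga
Tubb2b: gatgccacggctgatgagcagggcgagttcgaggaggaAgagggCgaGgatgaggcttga

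Among other beta isotypes the ends were further apart. Against Tubb5 (chr17:35834982-35835041, minus strand), 20 bases differed in Tubb4b (chr2:25222308-25222367, minus strand) and 32 in Tubb3 (chr8:123421623-123421682, plus strand).
Tubb5: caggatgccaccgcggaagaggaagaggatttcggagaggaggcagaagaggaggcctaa
Tubb4b: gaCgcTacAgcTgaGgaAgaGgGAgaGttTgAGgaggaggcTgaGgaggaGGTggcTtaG
Tubb3: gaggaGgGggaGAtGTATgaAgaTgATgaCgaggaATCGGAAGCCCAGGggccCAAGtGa

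Over the whole coding sequence the 3 alpha isotypes were 97.1% to 98.3% identical in their bases, the 7 beta isotypes 80.2% to 96.5% with a median of 83.4%, and an alpha with a beta isotype 52.6% to 55.1%. Tubb2a and Tubb2b were the closest beta pair at 96.5%, with 47 differing bases.

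Such likeness bears on how well reads can be told apart, and the sources used here do not give how reads with several places of origin were counted. Each isotype's transcript was therefore cut into all windows of 50 bases, and the windows that also stand in an annotated transcript of another gene, pseudogenes included, were counted. The share was 83.1% for Tuba1b, 75.5% for Tuba1a, 61.0% for Tuba1c, 55.5% for Tubb4b, 49.6% for Tubb2a and 39.3% for Tubb2b. For Tubb4b the gene with most shared windows was the pseudogene Tubb4b-ps1 (43.6% of windows), and for Tubb2a it was Tubb2b (45.6%). Tubb4a (0.184%), Tubb5 (0.115%), Tubb3 and Tubb6 (0 for both) shared almost none. Values of the first 6 genes are therefore uncertain as levels, and those of the last 4 rest on sequence of their own.

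**Figure D1:**
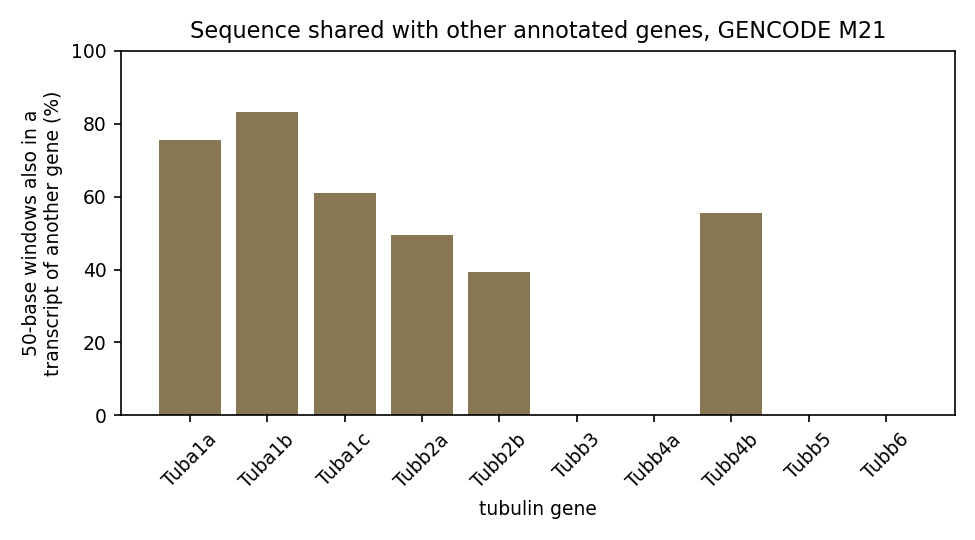
Bars give the percentage of 50-base windows of each isotype's GENCODE M21 transcript that also occur in a transcript of another gene, on either strand. The 3 alpha isotypes, Tubb2a, Tubb2b and Tubb4b stand between 39.3% and 83.1%, and Tubb3, Tubb4a, Tubb5 and Tubb6 at or near 0.

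The normal library held 29258428 exon reads and the tumour library 20836819. The 10 isotypes took 7549 of these reads in the normal kidney, 0.0258% (exact Clopper-Pearson 95% interval 0.0252% to 0.0264%), and 68029 in the tumour, 0.326% (0.324% to 0.329%). As a check on the labelled tissue, 14 of 14 kidney tubule markers had reads in the normal library and all 14 were at least 2-fold lower in the tumour, with a summed level of 56083 against 883 CPM (TMM-scaled counts per 1e+06 reads). Of 20 markers of cell division, 20 were higher in the tumour, with sums of 126 and 5352 CPM. Of all 16326 genes with at least 20 reads, 31.1% were higher and 28.1% lower, by the rule given in the next paragraph. The 10 markers of pluripotent cells, 9 of which had fewer than 20 normal reads, summed to 1.62 and 3222 CPM. Among these are Pou5f1 (Oct4) and Sox2, with 448 and 151 CPM in the tumour, which the transgene also encodes. Reads of the transgene and of the endogenous genes were not told apart. The differences in these lists are between the same 2 libraries as every tubulin result below, and their part in it was not tested. In bulk tissue, fewer cells of a type and less RNA per cell cannot be told apart.

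In the tumour, 9 of the 10 tubulin isotypes were higher than in the normal kidney, and the exception was Tubb2a. Higher or lower means a ratio of at least 2-fold between TMM-scaled counts (trimmed mean of M-values, which scales libraries on the bulk of genes), with a 95% counting interval that excludes no difference. Of all 16326 measured genes 59.1% passed this rule, 31.1% as higher and 28.1% as lower. Of the 8 isotypes with at least 20 reads in each library 7 were higher. The median log2 ratio, tumour over normal, was 3.81 over the 10 isotypes and 0.08 over all measured genes. Ratios of at least 10-fold were found for 7 of the isotypes (70.0%) and for 1734 measured genes (10.6%). With RPKM plus 1 in place of scaled counts it was 6 isotypes, without Tubb4a. With 1 library per group the ratios compare these 2 libraries and not the conditions, no p-value was computed, and all intervals cover counting error only. Copies made by PCR count as reads too, so the intervals may be too narrow even for that.

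Tubb5, the class I isotype and the chief beta-tubulin of proliferating cells, had 1623 reads in normal kidney and 44488 in tumour. Its level per length was 15.2 RPKM (reads scaled by transcript length and by library total) in the normal kidney and 508 RPKM in the tumour, which placed it 3105th and 82nd among the measured genes. The ratio of scaled counts was 26.0-fold (interval 24.7 to 27.3). With 44488 reads it held most of the isotype reads of the tumour library.

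Tubb4b, the class IVb isotype of cilia and of many tissues, had 3610 and 7762 reads. It was the most abundant of the isotypes in the normal kidney at 56.0 RPKM, and it stood at 147 RPKM in the tumour. The ratio was 2.04-fold higher, with an interval of 1.96 to 2.12 that reaches below 2-fold. Its order with Tubb5 was thus turned between the libraries. In the normal kidney Tubb4b stood 3.68-fold above Tubb5 per length (3.47 to 3.91), and in the tumour Tubb5 stood 3.46-fold above Tubb4b (3.38 to 3.55). Of the reads of this pair, which do not depend on library scaling, Tubb5 took 31.0% (29.8% to 32.3%) in the normal and 85.1% (84.8% to 85.4%) in the tumour library.

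**Figure D2:**
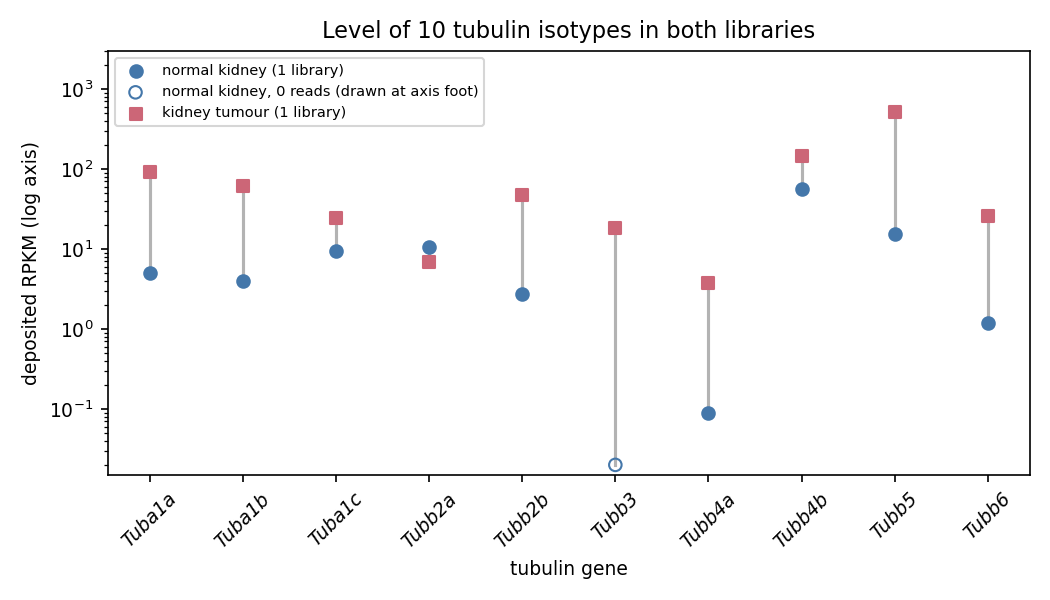
Deposited RPKM of each isotype on a log axis, circles for the normal kidney library and squares for the tumour library, joined by a line. Tubb5 moves from 15.2 to 508 RPKM, Tubb2a alone is lower in the tumour, and Tubb3, with 0 reads in the normal library, is drawn as an open circle at the foot of the axis.

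Tubb2a and Tubb2b, the class IIa and IIb isotypes that are abundant in brain, differed in direction although they are neighbours and near copies. Tubb2a had 691 normal and 367 tumour reads (10.7 and 6.91 RPKM), 1.99-fold lower (1.75 to 2.26) and so just short of the 2-fold rule. Tubb2b had 209 and 3015 reads (2.70 and 47.4 RPKM) and was 13.7-fold higher (11.9 to 15.8). Tubb2b took 23.2% (20.5% to 26.1%) of the reads of the pair in the normal kidney and 89.1% (88.1% to 90.2%) in the tumour, a 27.2-fold change of the read ratio between them (22.4 to 33.0) that is free of library scaling. Of the windows of Tubb2b, 33.4% also stand in Tubb2a, so a read from these could have been given to either gene or to none. Their ends, printed above, differ at only 3 of 60 bases.

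Tuba1a, the chief alpha-tubulin of young neurons, and Tuba1b, which is made in most cells, were higher to a like degree. Tuba1a had 319 and 4811 reads (4.97 and 91.4 RPKM) and was 14.3-fold higher (12.8 to 16.1). Tuba1b had 252 and 3178 reads (4.0 and 61.5 RPKM) and was 12-fold higher (10.5 to 13.6). Tuba1b took 44.1% (40.0% to 48.3%) of the reads of this pair in the normal and 39.8% (38.7% to 40.9%) in the tumour library, a small change of the read ratio to 0.836 of its normal value (0.702 to 0.997).

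Tuba1c, the third alpha gene of the cluster, moved less. It had 754 and 1610 reads (9.46 and 24.6 RPKM) and was 2.02-fold higher (1.86 to 2.21, an interval that includes 2-fold). Beside Tuba1a it took 70.3% (67.4% to 73.0%) of the reads of the pair in the normal kidney and 25.1% (24.0% to 26.2%) in the tumour. Of the 3 Tuba1 genes it thus had the highest RPKM in the normal kidney and the lowest in the tumour.

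Tubb3, the class III isotype of neurons, had no read in the normal kidney and 1038 in the tumour, where it stood at 18.2 RPKM. Against a floor of 3 counts in the normal library it was 328-fold higher, and the lower limit of the counting interval was 266-fold. By the ratio against the floor it stood at rank 96 from the top among all measured genes. Among the 6224 beta-tubulin reads of the normal kidney the absence of Tubb3 reads allows a share of up to 0.0482%.

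Tubb4a, the class IVa isotype of brain, was scarce in both libraries, with 8 and 279 reads (0.0890 and 3.78 RPKM). It was 33.1-fold higher in the tumour, with a wide interval of 16.6 to 77.4 that rests on 8 normal reads. With RPKM plus 1 its log2 ratio was 2.13, the lowest of 7 settings, and 5.61 was the highest. Tubb6, the class V isotype, had 83 and 1481 reads (1.18 and 25.7 RPKM) and was 16.9-fold higher (13.6 to 21.4). Both share almost no windows with other genes.

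**Figure D3:**
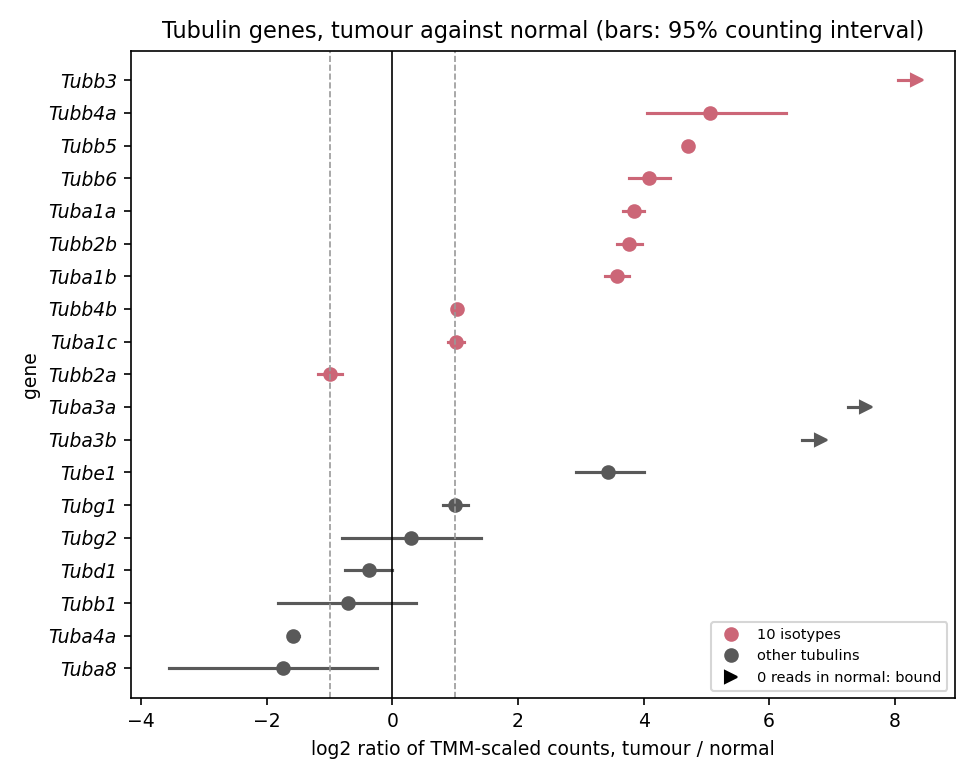
Log2 ratios of scaled counts (tumour over normal) for the 10 isotypes (red) and 9 other tubulin genes with at least 20 reads (grey), with 95% counting intervals as bars, dashed lines at 2-fold and triangles for bounds set by 0 reads in the normal library. The isotypes lie between -0.99 (Tubb2a) and 8.36 (Tubb3), with 7 of them beyond 10-fold.

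Levels can be ordered per length within a library. In the normal kidney the order from high to low was Tubb4b, Tubb5, Tubb2a, Tuba1c, Tuba1a, Tuba1b, Tubb2b, Tubb6, Tubb4a and Tubb3, and all 9 steps exceeded the counting interval. In the tumour it was Tubb5, Tubb4b, Tuba1a, Tuba1b, Tubb2b, Tubb6, Tuba1c, Tubb3, Tubb2a and Tubb4a, and 8 of 9 steps did. Tubb6 and Tuba1c were not told apart there (ratio of levels 1.04, interval 0.971 to 1.12). Both orders depended on the length by which the unchanged counts were divided. When the length of each transcript was replaced by its number of windows found in no other gene, a setting chosen with the data in view, the order in the normal kidney became Tubb4b, Tuba1c, Tuba1b, Tubb2a, Tuba1a, Tubb5, Tubb2b, Tubb6, Tubb4a and Tubb3, so that Tubb5 fell from the second to the sixth place and Tuba1b stood before Tuba1a. In the tumour it became Tubb5, Tubb4b, Tuba1a, Tuba1b, Tubb2b, Tuba1c, Tubb6, Tubb3, Tubb2a and Tubb4a, with Tubb5 1.52-fold above Tubb4b (1.48 to 1.56). In each library 7 of 9 steps exceeded the counting interval by that measure. In the normal kidney Tuba1c and Tuba1b (interval of the ratio 0.986 to 1.32) and Tuba1b and Tubb2a (0.862 to 1.16) were not told apart. In the tumour Tubb4b and Tuba1a (0.969 to 1.04) and Tuba1a and Tuba1b (0.968 to 1.06) were not. The measure is apt only if reads with several places of origin were left uncounted, which the sources do not give. Spread between animals could not be measured, so these orders hold for the libraries alone.

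The makeup of each pool changed accordingly. Of the summed RPKM of the 7 beta isotypes in the normal kidney, Tubb4b made up 65.2% (counting interval 64.1% to 66.4%), Tubb5 17.7%, Tubb2a 12.4%, Tubb2b 3.14%, Tubb6 1.38% and Tubb4a 0.104%. In the tumour Tubb5 made up 67.1% (66.7% to 67.6%), Tubb4b 19.4%, Tubb2b 6.27%, Tubb6 3.39%, Tubb3 2.41%, Tubb2a 0.914% and Tubb4a 0.500%. In the alpha pool Tuba1c led in the normal kidney with 51.3% (48.6% to 54.0%), ahead of Tuba1a with 27.0% and Tuba1b with 21.7%. In the tumour Tuba1a led with 51.5% (50.5% to 52.5%), followed by Tuba1b with 34.6% and Tuba1c with 13.9%. With lengths replaced by windows found in no other gene, under the condition given above, Tubb5 made up 52.3% of the tumour's beta pool and 8.98% of the normal one. Tubb4b then made up 34.4% and 75.3%. By that measure Tubb2a (12.6%) stood above Tubb5 in the normal beta pool. In the alpha pool Tuba1b (33.5%) then stood above Tuba1a (28.4%) in the normal kidney, and their counting intervals overlapped in the tumour (45.3% and 45.9%).

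**Figure D4:**
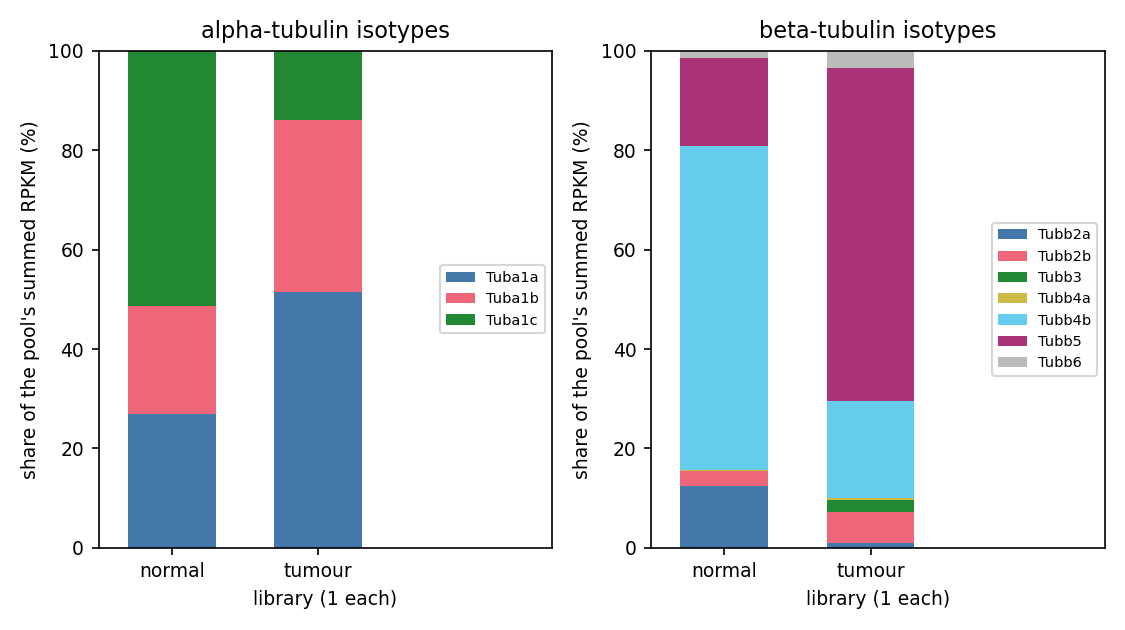
Stacked bars give each isotype's percentage of the summed RPKM of the 3 alpha (left) and the 7 beta isotypes (right) in the normal and the tumour library. Tubb4b (65.2%) leads the beta pool of the normal kidney and Tubb5 (67.1%) that of the tumour, and Tuba1c (51.3%) gives way to Tuba1a (51.5%) in the alpha pool.

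Alpha and beta chains pair in equal number in the dimer, which gives the sums a point of reference. The summed level was 18.4 RPKM for alpha and 85.8 RPKM for beta isotypes in the normal kidney, and 177 and 756 RPKM in the tumour. On the TMM scale the sums were 7.49-fold and 6.86-fold higher in the tumour. Beta isotypes thus exceeded alpha isotypes 4.66-fold in the normal and 4.26-fold in the tumour library. With lengths replaced by windows found in no other gene, again under the condition given above, these ratios were 2.65 and 1.34. With all other alpha and beta genes added to the pools they were 1.30 in the normal kidney and 3.49 in the tumour.

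Most of that last difference lay in Tuba4a, an alpha-tubulin gene outside the 10. Tuba4a had 3951 normal and 1393 tumour reads (47.7 and 20.5 RPKM) and was 2.99-fold lower (2.81 to 3.18), so that it made up 71.8% of the extended alpha pool in the normal kidney and 9.45% in the tumour. Of its windows 28.8% also stand in transcripts of the overlapping gene Stk16, so its level is uncertain. Among 9 other tubulins with at least 20 reads, 4 were higher and 2 lower, beside 31.1% and 28.1% of all measured genes. The median log2 ratio was 0.29. Of the 4 with at least 20 reads in each library 2 were higher and 1 was lower. With plain CPM, header totals or RPKM 1 of the 9 was lower in place of 2.

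Tuba3a and Tuba3b, alpha isotypes known chiefly from testis, had 595 and 361 tumour reads and none in the normal kidney. Against the floor of 3 counts they were 188-fold and 114-fold higher, with lower limits of 152-fold and 92.3-fold. They share 32.4% and 27.4% of their windows with each other. Tube1, the epsilon-tubulin of centrioles, was 10.9-fold higher (7.60 to 16.0), and Tubg1, the gamma-tubulin that seeds microtubules, 2.01-fold (1.75 to 2.30). Tuba8 was 3.37-fold lower on 16 and 5 reads (1.18 to 11.8). Tubg2 (14 and 18 reads), Tubd1 (137 and 111) and Tubb1 of platelets (20 and 13) were neither, and Tubal3 had no read.

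The proteins that fold, modify and bind tubulin were read from lists of 103 genes in the table. Newly made tubulin passes through prefoldin and the CCT chaperonin and is then joined to its partner by the tubulin cofactors. In this list 10 of 21 genes were higher and 1 was lower, beside 31.1% and 28.1% of all measured genes. Its median log2 ratio was 0.86. All 8 CCT subunits were higher, led by Cct7 with 3899 and 13789 reads, 3.35-fold (3.24 to 3.48), Cct3 3.26-fold (3.14 to 3.37) and Cct2 3.25-fold (3.14 to 3.35). Of 6 prefoldin subunits 2 were higher and 4 neither. Of the 7 genes grouped with the cofactors, which include Arl2 and the cofactor E-like gene Tbcel, none was higher. Tbcel was 3.37-fold lower (3.12 to 3.66), and the other 6 were neither.

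Free dimer lowers tubulin mRNA through Ttc5, which reads the first residues of the growing chain, and the CCR4-NOT deadenylase. The first 12 coding bases were the same in the 3 alpha isotypes (atgcgtgagtgc), while the 6 beta isotypes examined had 5 spellings, among them that of Tubb5 (atgagggaaatc). The 5 beta spellings differ only in synonymous codons, so they encode the same residues. Of the 7 genes in this list 2 were higher and none was lower (median log2 ratio 0.68), a share of higher genes near the 31.1% of all measured genes. Ttc5 had 610 and 1353 reads and was 2.10-fold higher (1.91 to 2.32), and Cnot1, the scaffold of the deadenylase, 2.65-fold (2.57 to 2.73). Cnot6 was 1.77-fold higher and thus neither. With plain CPM or header totals 5 of the 7 were higher, and with RPKM plus 0.1 it was 4.

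Enzymes that modify the tubulin tail or the acetylation site were divided: 4 of 21 were higher and 3 lower, and the median log2 ratio was 0.22. Of the 16 with at least 20 reads in each library 1 was higher and 2 were lower. Both shares lay below those of all measured genes (31.1% and 28.1%). The tubulin carboxypeptidase Vash2, which removes the last tyrosine of alpha-tubulin, had 11 and 596 reads and was 51.4-fold higher (28.5 to 103). Its paralog Vash1 was 8.79-fold higher (7.08 to 11.0). The glycylase family member Ttll10 had 151 and 4 reads and was 39.8-fold lower (15.2 to 148). Ttll12 was 1.96-fold higher, short of the rule. With plain CPM 7 of the 21 were higher.

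Of 11 genes of the gamma-tubulin ring complex, which nucleates microtubules, 4 were higher and none was lower (median log2 ratio 0.39), again near the 31.1% of all measured genes. Cdk5rap2, which anchors the complex at centrosomes, was 3.99-fold higher (3.67 to 4.33), Tubgcp2 2.74-fold (2.46 to 3.04) and Tubgcp5 2.26-fold (2.03 to 2.52). The largest ratios of microtubule partners were among associated proteins. Of these 18 of 30 were higher and 3 lower (median log2 ratio 1.39), beside 31.1% and 28.1% of all measured genes. Of the 23 with at least 20 reads in each library 11 were higher and 3 lower. Dcx, which stabilises microtubules in migrating neurons, had 1 and 330 reads (313-fold, 55.8 to 12395). The mitotic depolymerase Kif2c was 188-fold higher (112 to 344) and the spindle assembly factor Tpx2 107-fold (80.2 to 147). Mapt, which encodes tau, went the other way with 4250 and 252 reads, 17.8-fold lower (15.7 to 20.3).

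**Figure D5:**
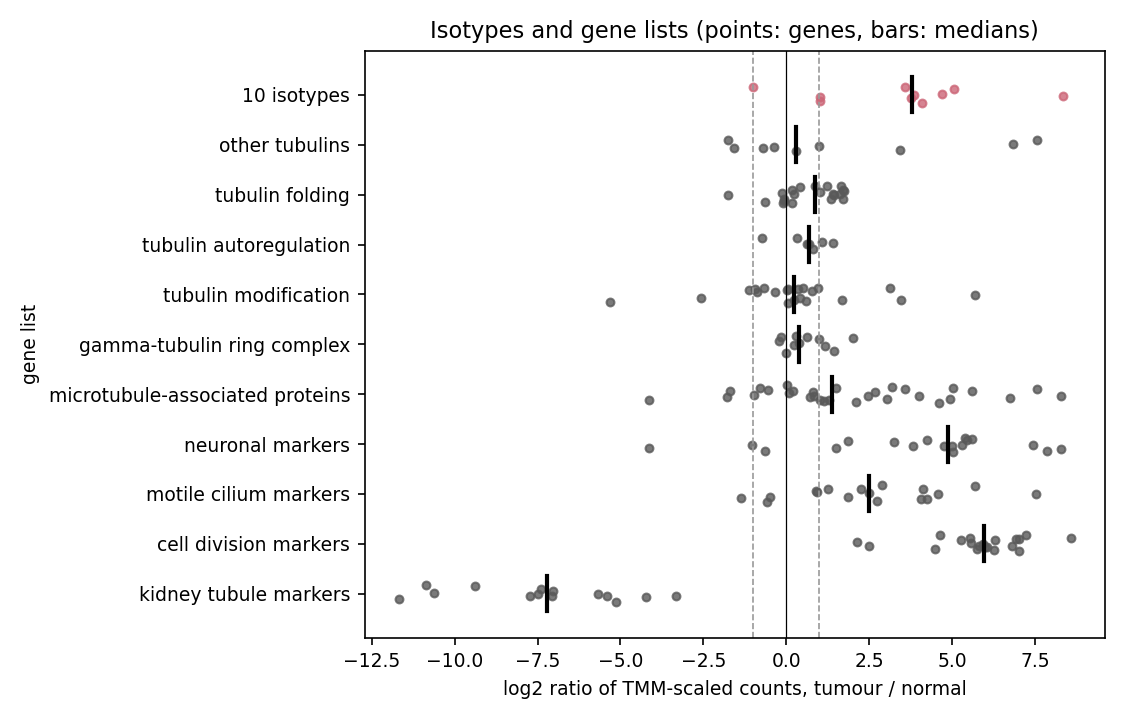
Points give the log2 ratio, tumour over normal, of each gene with at least 20 reads in the isotype set and in 10 gene lists, with bars at the medians, dashed lines at 2-fold and genes with 0 reads in a library drawn at their bound. The isotypes have a median of 3.81, the folding list 0.86, the modification list 0.22, cell division markers 5.95 and kidney tubule markers -7.22.

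Several isotypes are also marks of particular cells, so markers of those cells were read beside them. For Tubb3, Tubb2b, Tubb4a and Tuba1a these are neuronal genes, of which 15 of 18 with at least 20 reads were higher and 2 lower (median log2 ratio 4.88). The shares of all measured genes were 31.1% and 28.1%. As 11 of the higher neuronal genes had fewer than 20 normal reads and reached the minimum through the tumour, their count was in part fixed by it. Of the 6 with at least 20 reads in each library 4 were higher and 2 lower. The lower genes were Mapt, 17.8-fold (15.7 to 20.3), and Syp, 2.06-fold (1.57 to 2.72). Dcx, Map2, Map1b, Mapt and Stmn2 also stand in the list of associated proteins, so the counts of these lists are not separate. The RNA-binding protein Elavl2 and the neurofilament Ina had 0 reads in the normal kidney and 742 and 552 in the tumour. They were 235-fold and 174-fold higher against the floor, with lower limits of 190-fold and 141-fold. In the normal library Elavl4, Snap25, Gap43 and Neurod1 were at 0 as well, and no gene of the list was at 0 in the tumour. The summed level was 217 CPM in the normal kidney, where Mapt held most reads, and 555 in the tumour. With plain CPM, header totals or RPKM 1 gene of the list was lower in place of 2.

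For Tubb4b and Tubb4a, which serve cilia, 12 of 17 motile cilium markers were higher and 1 was lower (median log2 ratio 2.51), and the list summed to 19.9 and 66.4 CPM. Of all measured genes 31.1% were higher and 28.1% lower. As 10 of the higher markers had fewer than 20 normal reads, their count was in part fixed by the minimum. Of the 5 with at least 20 reads in each library 2 were higher and 1 was lower. With RPKM plus 1 the 12 became 5, and no marker was lower with plain CPM, header totals or RPKM. Ccdc40, an assembly factor of axonemes, had 2 and 387 reads (183-fold, 50.4 to 1520) and Hydin 4 and 216 (51.2-fold, 19.7 to 190). Spag16 had 0 and 76 (24.0-fold against the floor, lower limit 19.1). Dnah5 was 2.56-fold lower (2.02 to 3.27). In the normal library Spag16, Mcidas and Pifo were at 0. For Tuba3a and Tuba3b, 10 germ cell and sperm markers summed to 0.458 and 67.0 CPM. The 4 that reached 20 reads did so through the tumour library alone, so their direction was largely fixed by the minimum and is given as a description. Dazl had 1 and 1045 reads (991-fold, 177 to 39172), Sycp3 4 and 286 (67.8-fold, 26.2 to 251) and Sycp1 0 and 192 (60.7-fold against the floor, lower limit 48.9). The sperm genes Prm1, Prm2, Acrv1 and Akap4 were at 0 in both libraries. The part of these cell types in the tubulin values was not tested.

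Promoters of the RefSeq table (GRCm38.p6, 250 bases before to 50 after the annotated start) were matched for 8 of the 10 genes, all but Tubb2b and Tubb6. They are shown, without the bases from the start on, for Tubb5, the gene with most tumour reads, for Tubb4b, which led in the normal kidney, for Tubb3, which had no read there, and for Tubb2a, the isotype that was not higher. The windows are chr17:35838252-35838551, chr2:25224653-25224952 and chr13:34077959-34078258 on the minus strand and chr8:123411303-123411602 on the plus strand. Capitals mark matches, on either strand, to CCAAT (bound by NF-Y), TATAAA (the TATA box), GGGCGG (bound by Sp1), CACGTG (the E-box of CLOCK and BMAL1 and of MYC) and TTTGAA (part of the cell cycle element CHR), none of which overlap.
Tubb5: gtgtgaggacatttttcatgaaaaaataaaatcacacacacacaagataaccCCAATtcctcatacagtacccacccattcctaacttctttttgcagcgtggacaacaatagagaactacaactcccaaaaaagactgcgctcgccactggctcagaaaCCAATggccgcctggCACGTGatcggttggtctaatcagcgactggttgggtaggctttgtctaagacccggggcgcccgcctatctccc
Tubb4b: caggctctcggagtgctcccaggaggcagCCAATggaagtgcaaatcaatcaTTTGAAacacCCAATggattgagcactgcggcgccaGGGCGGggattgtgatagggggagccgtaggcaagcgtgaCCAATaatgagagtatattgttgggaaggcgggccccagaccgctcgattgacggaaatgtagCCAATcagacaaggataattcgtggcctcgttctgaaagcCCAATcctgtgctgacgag
Tubb3: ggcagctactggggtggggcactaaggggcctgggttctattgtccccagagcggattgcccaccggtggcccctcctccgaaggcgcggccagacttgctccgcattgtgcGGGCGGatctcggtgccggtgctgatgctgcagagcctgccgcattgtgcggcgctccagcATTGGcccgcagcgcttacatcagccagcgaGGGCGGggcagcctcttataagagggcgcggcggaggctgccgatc
Tubb2a: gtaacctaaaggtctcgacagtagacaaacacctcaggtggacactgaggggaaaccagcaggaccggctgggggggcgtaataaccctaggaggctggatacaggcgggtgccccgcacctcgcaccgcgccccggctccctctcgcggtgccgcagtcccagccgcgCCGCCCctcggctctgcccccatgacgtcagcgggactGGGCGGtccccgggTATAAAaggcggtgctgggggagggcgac

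Over the whole window CCAAT was found in 5 of the 8 promoters and in 37.4% of all 32851 windows of the table, GGGCGG in 6 of 8 and 35.7%, TATAAA in 2 and 13.6%, CACGTG in 1 and 7.15%, and TTTGAA in 1 and 17.9%. Tubb4b had 5 matches to CCAAT, and Tubb5 had 2 and the single CACGTG, which begins 75 bases before the start. The TATAAA of Tubb2a begins 29 bases before the start. That of Tubb4b begins 18 bases after the start, outside the printed bases and not where a TATA box lies. Observed over expected CpG ran from 0.28 (Tuba1c) to 0.99 (Tuba1b), with 0.93 for Tubb5, against a median of 0.38 over all windows, and GC content from 53.7% to 72.7% against 52.7%. These matches describe the letters of the windows and are not sites shown to be bound.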

How the data were processed

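Per the labels' protocols, ribosomal RNA was removed from the total RNA of 2 tissue samples before stranded libraries were made. The authors deposited raw read counts over exons of 32958 UCSC knownCanonical gene models on mm10, and RPKM values, per the file headers. The deposited RPKM equalled count over length and header total (40408775 and 33169818), with a largest difference of 1.8e-06. HOMER, STAR 2.5.0c and bcl2fastq stand in the submitters' processing notes, with no role given. Strand setting and treatment of multiply mapped reads are not given in the sources used here. Scaling by TMM (edgeR 4.0.16 in R 4.3.3, over all models) gave a normal factor of 0.822 and a tumour factor of 1.22. Intervals of ratios are exact conditional (Clopper-Pearson) 95% intervals, and a count of 0 was set to 3 counts (0.125 CPM in the normal, 0.118 CPM in the tumour library). Intervals of length-scaled shares come from the Poisson variance of the counts. The calls and intervals were tested on simulated Poisson counts in which few genes differed. Far more genes differ between these libraries, so that test does not show how well the scaling or the calls hold here. CPM values are TMM-scaled, RPKM values are as deposited. Coding sequences and windows of 50 bases come from 141767 GENCODE M21 transcripts (mm10), aligned with Biopython 1.88. Other tools were Python 3.11.15, numpy 2.4.6, pandas 2.3.3, scipy 1.17.1 and matplotlib 3.10.9.

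The 10 genes and 14 gene lists (214 entries, 213 in the table) were chosen with earlier results of these data known. The text names all 10 genes, every other tubulin, and in each other list the top 3 genes by ratio on the side of the list's median and the top gene on the other side where it passed the rule (mean level 1 CPM or more), and markers at 0 reads. Genes that complete a group were named after their values were seen. Since 2 libraries give 1 difference per gene, no gene was ranked by likeness of pattern. The alternatives were other scalings, RPKM plus a pseudocount of 0.1 or 1, other minimum counts, folds and pools. Some coding ends and marker genes that these rules select are not reported here.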

Additional observations from a re-analysis of the deposited data

How the results depend on the processing

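Each of the 10 ratios kept its direction and its side of the 2-fold rule in all 7 settings tried for it (plain CPM, header totals, median of ratios, TMM over models with at least 20 reads, RPKM plus 0.1, RPKM plus 1 and the sum of all rows of a symbol). The sum of rows could not differ, because each gene has a single model. The other settings shifted the median of all measured genes up. Tuba1c, Tubb4b and Tubb2a, all near the 2-fold line, were thus not moved towards it, and their staying on 1 side says little. Log2 ratios ran from 4.70 to 5.27 for Tubb5, from 1.03 to 1.59 for Tubb4b, from 1.02 to 1.58 for Tuba1c, from -0.99 to -0.42 for Tubb2a from 2.13 to 5.61 for Tubb4a, from 3.61 to 4.65 for Tubb6 and from 4.26 to 8.92 for Tubb3, the lowest of the last 3 with RPKM plus 1. The median of all measured genes shifted up by 0.57 with plain CPM, 0.36 with header totals, 0.33 with RPKM plus 0.1 and 0.17 with RPKM plus 1. The share of calls that were higher was 52.5%, and 67.6%, 62.5% and 62.6% with the first 3 of these. The count of 9 higher isotypes was 7 when the interval had to lie wholly beyond 2-fold, without Tuba1c and Tubb4b. At 1.5-fold 1 isotype, Tubb2a, was lower. With RPKM plus 1, 2758 of all measured genes were lower in place of 4586, and 5 of 97 tubulin-related genes in place of 9, which came to 15 at 1.5-fold. As a share of reads rather than RPKM, Tuba1c made up 56.9% of the alpha pool in the normal and Tuba1a 50.1% in the tumour library, Tubb4b 58.0% of the beta pool in the normal and Tubb5 76.1% in the tumour. With the other alpha genes in the pool Tuba1c was at 14.2% and Tuba1a at 42.1%. With lengths replaced by windows found in no other gene (chosen after seeing the data) the shares were 38.1%, 45.9%, 75.3% and 52.3% in the same order as for reads. Depth limits Tubb4a (8 reads) and Tubb3 (0 reads) in the normal library. No paired analysis was possible because each group has 1 library.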

Other observations

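Markers of podocytes, cells whose long processes are rich in microtubules, were divided. Of 8 markers 3 were lower and 1 was higher, beside 28.1% and 31.1% of all measured genes. The median log2 ratio was -0.28 and the sums were 514 and 420 CPM. Ptpro was 3.59-fold lower (3.02 to 4.29) and the actin-associated Synpo 2.49-fold (2.16 to 2.86), while the transcription factor Wt1 was 3.26-fold higher (2.68 to 3.98).

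Of 6 red cell and platelet markers with at least 20 reads 4 were lower and 1 was higher, beside 28.1% and 31.1% of all measured genes. The median log2 ratio was -1.39, and the 8 in the table summed to 214 and 81.4 CPM. Itga2b, the platelet integrin, was 5.27-fold lower (3.52 to 8.15), Hbb-bs 3.03-fold (2.85 to 3.22) and the heme synthesis enzyme Alas2 2.71-fold (2.24 to 3.30), and the platelet chemokine Pf4 was 9.57-fold higher (6.10 to 15.8). Hbb-bs is uncertain because of near-identical globin copies. Tubb1, the beta-tubulin of platelets, had 20 and 13 reads.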
